A study of Arabidopsis thaliana with 12 samples.

Results

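The GASA genes of Arabidopsis thaliana encode small secreted peptides, named for GAST1, a gibberellin-induced gene of tomato. 9 of them (GASA1 to GASA6, GASA9, GASA10 and GASA14), of 36917 genes listed, were followed across wild type and 3 mutant genotypes with impaired plastid protein homeostasis. They were chosen by gene identifier, with the counts of these 12 libraries already known, so their levels and changes are given as a description and carry no p-value. 5 of the 9 (GASA1, GASA4, GASA6, GASA9 and GASA14) passed the filter on low counts and were among the 15371 genes tested. The other 4 had 0 to 9 counts in each library.

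Gibberellins are diterpene hormones made from a plastid precursor, and they promote germination, cell elongation and leaf growth. The hormone binds a GID1 receptor, and the complex directs DELLA proteins, which restrain growth genes, to degradation. Many GASA genes respond to this pathway, some being induced and others repressed, and their products carry a conserved cysteine-rich C-terminal domain. In Arabidopsis, GASA4 is known from meristems, GASA5 as a repressor of flowering, GASA6 from the elongation of cells at germination, and GASA14 from leaf expansion.

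RNA came from seedlings 4 d old in 4 genotypes, with 3 libraries each: wild type Col-0, gun1-103 (line SAIL_742_A11), fug1-3 (line SAIL_209_E08) and the double mutant gun1-103 fug1-3. GUN1 is a plastid pentatricopeptide repeat protein that acts in plastid-to-nucleus signalling, and FUG1 is the plastid translation initiation factor IF-2. All seeds were kept for 2 d in the dark at 4 °C and grew at 22 °C on medium with 1% sucrose, in cycles of 16 h light at 100 µmol m-2 s-1 and 8 h dark. The labels do not say whether the 3 libraries of a genotype came from separate cultures, so the errors below measure the spread between libraries, which may be technical. Each mutant genotype rests on the named allele alone.

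GUN1 had 978, 689 and 531 counts in wild type, 130, 110 and 94 in gun1, 234, 240 and 254 in fug1 alone and 104, 115 and 7 in gun1 fug1. FUG1 had 1121, 680 and 471 counts in wild type, 492, 207 and 181 in gun1, 42, 94 and 96 in fug1 alone and 131, 91 and 13 in gun1 fug1. After the libraries were scaled by TMM factors (levels in CPM), which bring the bulk of genes to one level, GUN1 was at 34.9 ± 4.73 (SD, n = 3) in wild type and 8.53 ± 1.18 and 8.99 ± 1.49 in the genotypes that carry gun1-103. FUG1 was at 35.5 ± 9.07 CPM in wild type, and at 8.73 ± 2.79 and 11.3 ± 3.77 in the genotypes that carry fug1-3. Libraries held between 8519197 and 12360838 counts, of which plastid-encoded genes took 53.45% to 84.43%. The third gun1 fug1 library stood apart: its TMM factor was 0.07228 against 0.7999 to 2.049 in the other 11, 23881 genes had no count against 13359 to 16417, and 1 count in it was worth 1.2 CPM. The total of that library, 11535902 counts, was not low, but AT2G41310 alone took 15.6% of it, against 0.333% to 2.38% in the other 11. The values of this library are therefore given as counts too. The log2 fold changes of the GASA genes in the double mutant are given with and without it.

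All 15 annotated genes of the family, 6 of them outside the 9, hold 12 cysteine codons among their last 60 codons. Of the 9, 8 are short, with coding lengths of 270 to 360 bp. GASA14 stands apart with 828 bp, or 275 codons, of which 81 encode proline. Over the last 60 codons, the encoded residues of GASA6 were 75.0% identical to GASA4 and 73.3% identical to GASA5, and GASA14 was 21.7% identical to GASA1. GASA2 and GASA3 are neighbours on chromosome 4 with 1123 bp and 0 genes between them. They shared 88.3% of residues and, at most, a run of 35 identical bases. Reads that lie within that run could be split or lost in counting, which was not tested.

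The 250 bases before the annotated starts of GASA6, GASA9, GASA1 and GASA14 are shown because, with TMM scaling, the first 2 had the lowest and the others the highest log2 fold changes of the tested GASA genes in the double mutant. They come from the RefSeq TAIR10.1 assembly, whose nuclear chromosomes were used for the identifiers of the TAIR10 counts, and run 5′ to 3′ on each gene's strand. The windows are chr1:28052780-28053029 (plus strand) for GASA6, chr1:8026876-8027125 (plus) for GASA9, chr1:28442436-28442685 (minus) for GASA1 and chr5:4825891-4826140 (plus) for GASA14. Capitals mark matches, on either strand, to 6 motifs that were searched. These include the gibberellin response element TAACAAA, the TATCCAC box, the RY core CATGCA of seed genes and the G-box CACGTG. The others were AAATATCT, a shortened form of the evening element of circadian genes, and the I-box GATAAG of light-regulated genes.
GASA6: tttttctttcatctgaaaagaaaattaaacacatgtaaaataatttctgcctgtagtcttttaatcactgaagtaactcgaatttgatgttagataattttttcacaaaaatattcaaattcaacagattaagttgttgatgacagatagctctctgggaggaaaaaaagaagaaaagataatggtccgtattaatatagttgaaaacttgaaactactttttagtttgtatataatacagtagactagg
GASA9: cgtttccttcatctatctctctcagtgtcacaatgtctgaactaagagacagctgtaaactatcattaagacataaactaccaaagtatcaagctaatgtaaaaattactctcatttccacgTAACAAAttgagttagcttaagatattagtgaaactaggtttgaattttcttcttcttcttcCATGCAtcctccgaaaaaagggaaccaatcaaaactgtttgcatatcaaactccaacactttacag
GASA1: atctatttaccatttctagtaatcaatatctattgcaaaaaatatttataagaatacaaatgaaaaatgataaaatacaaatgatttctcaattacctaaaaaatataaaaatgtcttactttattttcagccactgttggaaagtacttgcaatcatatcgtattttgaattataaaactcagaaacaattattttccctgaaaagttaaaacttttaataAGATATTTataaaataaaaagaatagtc
GASA14: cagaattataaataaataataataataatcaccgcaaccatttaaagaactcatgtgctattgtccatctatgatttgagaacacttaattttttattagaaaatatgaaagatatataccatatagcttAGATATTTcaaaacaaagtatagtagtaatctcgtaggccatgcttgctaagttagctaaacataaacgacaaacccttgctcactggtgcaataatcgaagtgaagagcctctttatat

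The gibberellin response element was found in 1 of the 9 promoters, that of GASA9, against 16.1% of 27438 promoters of the same length. GASA9 also held an RY core, as did GASA2, against 8.43% of all promoters. The shortened evening element lay in 2 of the 9 windows, those of GASA1 and GASA14, against 4.79% of all promoters. Both copies read AGATATTT on the gene's own strand, the reverse complement of the searched letters. The I-box was found in GASA2 alone (12.3% of all promoters), and the G-box (6.49%) and the TATCCAC box (2.63%) in none of the 9. GASA6 held none of the 6 motifs in this window. These matches describe letters in the window and do not show binding, and a link between motif and direction of change was not tested.

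GASA6 (AT1G74670, chromosome 1, 28053030 to 28054149, plus strand, 3 exons) was the most abundant of the 9 genes per length in wild type, and its level was lower in each mutant. It was at 130, 166 and 164 CPM in the 3 wild-type libraries, at 99.8, 97.1 and 61.6 in gun1, at 47.3, 55.7 and 50.8 in fug1 and at 20.3, 18.8 and 9.60 in gun1 fug1. The 4 genotypes did not overlap, in the order wild type, gun1, fug1, gun1 fug1, but the gap between the lowest gun1 library (61.6) and the highest fug1 library (55.7) was smaller than the spread within gun1. The means were 153 ± 20.4, 86.2 ± 21.3, 51.3 ± 4.25 and 16.3 ± 5.82 CPM (SD, n = 3). The third double-mutant library rests on 8 GASA6 counts, and the other 2 gave a mean of 19.6 CPM.

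The log2 fold change of GASA6 from wild type was -0.83 ± 0.243 (SE) in gun1, -1.58 ± 0.248 in fug1 alone and -3.13 ± 0.270 in the double mutant, the last being a level 8.75-fold lower. The double mutant was also lower than each single mutant, by a log2 fold change of -2.30 ± 0.263 from gun1 and -1.55 ± 0.259 from fug1. Without gun1 fug1 3 the last 2 values were -2.13 and -1.38. A contrast is named called here where the Benjamini-Hochberg adjusted p over all genes tested was under 0.05 in edgeR's quasi-likelihood test. For the GASA genes, which were chosen with these counts known, a call is a description and supports nothing. All 5 contrasts of GASA6 were called. When each of the 12 libraries was left out in turn, 4 of these calls were made every time, and the double mutant against wild type ran from -3.30 to -2.96, the latter without gun1 fug1 3. The call in gun1 was made without gun1 1 or without gun1 fug1 3, and was lost without any other single library, with log2 fold changes of -0.97 to -0.66 over the 12 fits. In a bulk sample, fewer cells with a transcript and less of it per cell cannot be told apart.

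AT1G74675, a protein-coding gene on the opposite strand, overlaps GASA6 by 206 bp, and the sources used here do not say whether counting used strand, so reads of this overlap cannot be assigned with certainty. It had 162, 153 and 167 counts in wild type, 83, 77 and 64 in gun1, 16, 35 and 38 in fug1 alone and 10, 4 and 0 in gun1 fug1. In wild type these counts are far below the 3272, 3140 and 2939 of GASA6.

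GASA9 (AT1G22690, chromosome 1, 8027126 to 8028168, plus strand, 5 exons) was also lowest in the double mutant. It was at 31.6, 28.1 and 21.2 CPM in wild type, at 22.4, 20.6 and 7.50 in gun1, at 13.4, 15.2 and 9.78 in fug1 and at 2.20, 5.85 and 4.80 in gun1 fug1. The double mutant did not overlap any other genotype, whereas gun1 overlapped both wild type and fug1. The means were 27.0 ± 5.31, 16.8 ± 8.12, 12.8 ± 2.79 and 4.28 ± 1.88 CPM (SD, n = 3). The third gun1 library was the lowest of its group for both GASA9 and GASA6.

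The log2 fold change of GASA9 from wild type was -2.74 ± 0.470 (SE) in gun1 fug1, which was called, and -0.68 ± 0.377 in gun1 and -1.08 ± 0.389 in fug1, which were not. The double-mutant call was made in all 12 fits that leave out a library, with -3.42 without gun1 fug1 2 and -2.25 without gun1 fug1 1 as the limits, and -2.78 without gun1 fug1 3, where GASA9 has 4 counts. Against gun1 the double mutant was at -2.06 ± 0.470, called in 6 of 12 such fits and lost without wild type 2, gun1 1, gun1 2, fug1 1, gun1 fug1 1 or gun1 fug1 3, with values of -2.75 to -1.58. Against fug1 it was at -1.66 ± 0.477 and not called. Without gun1 fug1 3 these values were -2.08 and -1.69. The fug1 contrast with wild type lay near the threshold: it was called in 9 of 24 alternative fits, among them DESeq2 and those without gun1 3, gun1 fug1 1 or gun1 fug1 2. The double mutant against fug1 was called in 5 of 24, among them DESeq2 and the fit without gun1 3.

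GASA4 (AT5G15230, chromosome 5, 4944816 to 4946299, plus strand, 3 exons), the relative closest to GASA6 in sequence among those with enough counts, had a smaller difference. It was at 15.6, 14.0 and 17.4 CPM in wild type, at 17.2, 14.4 and 18.2 in gun1, at 9.92, 12.5 and 14.5 in fug1 and at 8.80, 10.2 and 4.80 in gun1 fug1. Wild type and gun1 overlapped throughout, and fug1 overlapped each of the other genotypes. The means were 15.7 ± 1.66, 16.6 ± 1.97, 12.3 ± 2.31 and 7.94 ± 2.81 CPM (SD, n = 3). The double mutant was lower than wild type by a log2 fold change of -0.81 ± 0.218 (SE) and than gun1 by -0.89 ± 0.220, both called. The first call was lost without gun1 fug1 1, with -0.96 to -0.72 (without gun1 fug1 3) over the 12 fits, and the second without gun1 1, gun1 2, gun1 fug1 1 or gun1 fug1 2, with -1.05 to -0.80, the latter without gun1 fug1 3. Against fug1 it was at -0.47 ± 0.224, or -0.38 without gun1 fug1 3, not called. The difference of fug1 from wild type, -0.34 ± 0.202, and of gun1, 0.09 ± 0.196, were not called.

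**Figure D1:**
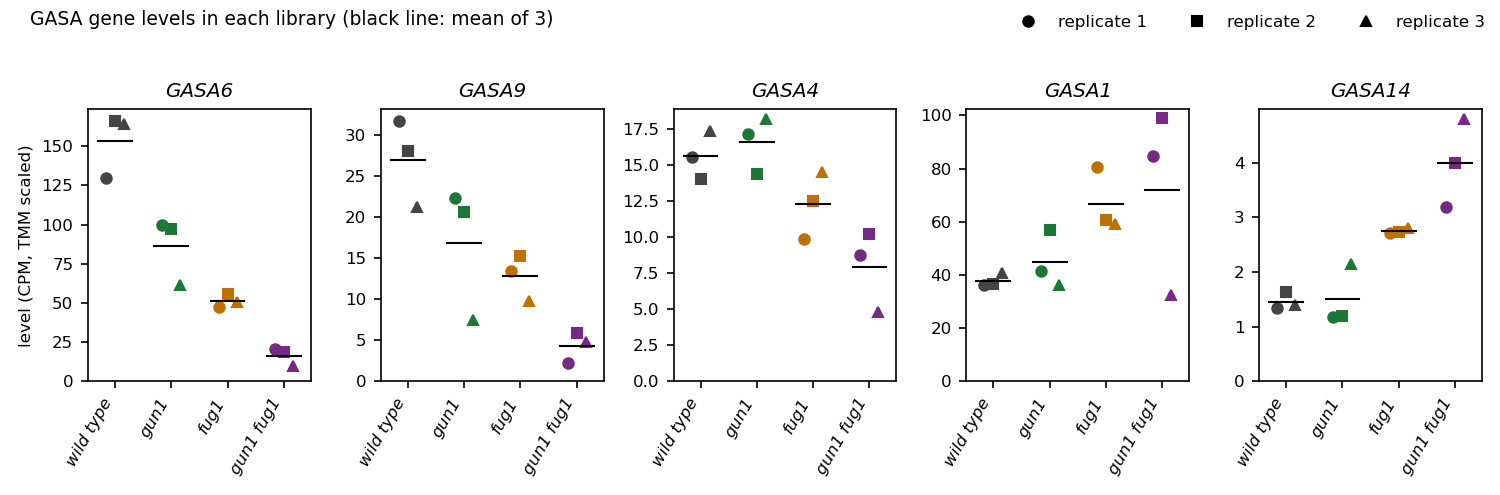
Level in CPM (TMM scaled, linear axes from 0, each gene on its own scale) of the 5 GASA genes that passed the low-count filter, with 1 point per library and a black line at the mean of 3. GASA6 falls from 153 CPM in wild type to 16.3 CPM in gun1 fug1 with no overlap between genotypes, while GASA14 is at 1.46 CPM in wild type and 3.99 CPM in gun1 fug1, and the third gun1 fug1 library lies far below the other 2 for GASA1.

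GASA1 (AT1G75750, chromosome 1, 28441501 to 28442435, minus strand, 3 exons) differed the other way. It was at 36.0, 36.7 and 40.7 CPM in wild type, at 41.6, 56.7 and 36.3 in gun1, at 80.7, 60.6 and 59.2 in fug1 and at 84.9, 99.0 and 32.4 in gun1 fug1. All 3 fug1 libraries and the first 2 of the double mutant were above every wild-type library, and the third double-mutant library, with 27 counts, was below them. The means were 37.8 ± 2.51, 44.9 ± 10.6, 66.8 ± 12.03 and 72.1 ± 35.1 CPM (SD, n = 3), and the double mutant was at 91.9 over its first 2 libraries.

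The log2 fold change of GASA1 from wild type was 0.82 ± 0.279 (SE) in fug1 (-0.34 with library totals in place of TMM) and 0.98 ± 0.281 in gun1 fug1, both called. The fug1 call was made only without gun1 fug1 2 or gun1 fug1 3 and was lost without any of the other 10 libraries, with 0.66 to 0.90 over the 12 fits. It was also lost with RLE, upper-quartile or organelle-free scaling and in DESeq2. The double-mutant call was lost without wild type 1, wild type 2, gun1 fug1 1 or gun1 fug1 2, with 0.72 to 1.28 over the 12 fits, the highest without gun1 fug1 3. In gun1 the value was 0.25 ± 0.277, not called. The double mutant was 0.74 ± 0.281 above gun1 and 0.16 ± 0.280 above fug1, neither of them called. Without gun1 fug1 3 the first was 1.045 and called, in that fit alone of the 12, and the second was 0.46 and not called. Without gun1 fug1 2 the second turned to -0.11.

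GASA14 (AT5G14920, chromosome 5, 4826141 to 4828384, plus strand, 3 exons), the proline-rich member, was low throughout and highest in the double mutant. It had 34, 31 and 25 counts in wild type, 17, 14 and 28 in gun1, 20, 23 and 29 in fug1 alone and 42, 43 and 4 in gun1 fug1. In CPM the means were 1.46 ± 0.155, 1.51 ± 0.553, 2.75 ± 0.0474 and 3.99 ± 0.806 (SD, n = 3), or 3.59 for gun1 fug1 over its first 2 libraries. The fug1 and gun1 fug1 libraries were all above wild type and gun1. The log2 fold change from wild type was 0.92 ± 0.30 (SE) in fug1 (-0.23 with library totals) and 1.33 ± 0.305 in gun1 fug1, both called, and 0.05 ± 0.306 in gun1, not called. The double-mutant call was made in all 12 fits without a library, at 1.22 to 1.5 and at 1.29 without gun1 fug1 3, and the fug1 call was lost without any 1 of the wild-type or fug1 libraries, at 0.82 to 0.97, and also in DESeq2 and without a filter on low counts. Against gun1 the double mutant was at 1.28 ± 0.318, a call lost without gun1 1, gun1 2, gun1 fug1 1 or gun1 fug1 2, at 1.09 to 1.61, and against fug1 at 0.41 ± 0.313, not called. Without gun1 fug1 3 these were 1.25 and 0.38.

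GASA3, a seed-expressed member, had 5, 0 and 2 counts in wild type, 6, 8 and 9 in gun1, 3, 4 and 3 in fug1 alone and 0, 3 and 0 in the double mutant, too few to be tested. GASA10 had at most 3 counts in a library and GASA5 at most 1, and GASA2 had 0 in all 12. A count of 0 allows up to 3 counts, which is 0.119 CPM in the deepest library and 3.6 CPM in the third double-mutant library, so a low level of these genes was not detectable there. This limit covers counting error only.

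Per kilobase of exon, which allows levels to be compared between genes, the order in wild type was GASA6 at 168 ± 22.4 CPM per kb (SD, n = 3), GASA1 at 49.7 ± 3.31, GASA9 at 35.3 ± 6.95, GASA4 at 15.7 ± 1.67 and GASA14 at 0.731 ± 0.0776. In the double mutant GASA1 led at 94.9 ± 46.2 CPM per kb, ahead of GASA6 at 17.9 ± 6.39. GASA4 at 7.97 ± 2.82 and GASA9 at 5.61 ± 2.46 did not differ beyond their spread there, and GASA14 was at 2.00 ± 0.404.

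Counts per gene called, set beside the share of all tested genes called, were as follows. In gun1 against wild type 1 of the 5 tested genes was called, lower, where 2.42% of all tested genes were called lower and 3.52% higher. In fug1 1 was called lower and 2 higher, where 7.88% and 9.94% of all tested genes were. In gun1 fug1 3 were called lower and 2 higher, where 9.88% and 12% were. Between the double mutant and gun1, 3 were called lower and 1 higher, where 1.48% and 1.61% of all tested genes were (3.09% in either direction), and between the double mutant and fug1 1 was called lower, where 0.104% was (0.267% in either direction). Since the genes were chosen with these contrasts known, nothing is read from these shares. The median log2 fold change over the 5 genes was 0.05 in gun1, -0.34 in fug1 alone and -0.81 in the double mutant, beside 0.02, 0.00 and -0.03 over all tested genes.

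**Figure D2:**
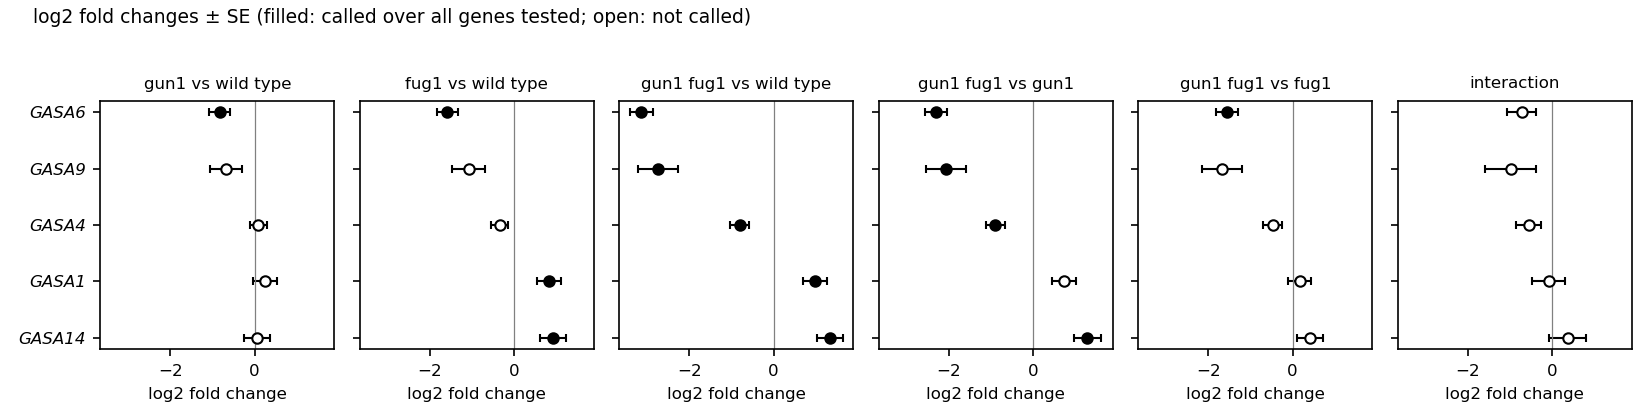
Log2 fold change (points) and SE (bars) of the 5 GASA genes in 5 contrasts of genotypes and in the interaction, which subtracts the gun1 effect seen alone from the gun1 effect seen in fug1-3 seedlings, with filled points for calls. GASA6 is filled in all 5 contrasts, from -0.83 in gun1 to -3.13 in gun1 fug1, and no point is filled for the interaction.

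Whether the effect of gun1-103 differed in the fug1-3 background is described by the interaction term. As a description, none of the 5 genes was called by edgeR's quasi-likelihood test, where 1.34% of all tested genes were (0.54% lower), and 0 were called by DESeq2 and by limma-voom; 0 of the 5 had an unadjusted p under 0.05. The interaction was -0.98 ± 0.605 (SE) for GASA9, -0.72 ± 0.351 for GASA6, -0.55 ± 0.297 for GASA4, 0.37 ± 0.439 for GASA14 and -0.08 ± 0.394 for GASA1, on the log2 scale. Without gun1 fug1 3 it was -0.995 for GASA9, -0.54 for GASA6, -0.46 for GASA4, 0.34 for GASA14 and 0.23 for GASA1, the last having turned sign. With library totals, with or without that library, GASA6, GASA4 and GASA1 turned positive, at up to 0.57, 0.64 and 1.37. GASA9 turned to 0.16 with library totals without it. The median of all tested genes was then 0.496 with it and 1.05 without it. GASA14 kept its sign in every alternative fit.

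The ratio of 2 genes' counts within a library needs no scaling between libraries. GASA6 had 3.60, 4.52 and 4.03 counts for each count of GASA1 in wild type, 2.40, 1.71 and 1.70 in gun1, 0.586, 0.919 and 0.859 in fug1 alone and 0.239, 0.190 and 0.296 in gun1 fug1. No genotype overlapped another, and the third double-mutant library lay beside the other 2 in this ratio. The GASA9 to GASA1 ratio in the order wild type, gun1, fug1 and double mutant was 0.721 ± 0.182, 0.369 ± 0.165, 0.194 ± 0.0491 and 0.0777 ± 0.0631 (SD, n = 3), with overlap between wild type and gun1 and between gun1 and fug1. The double-mutant libraries were at 0.0259, 0.0591 and 0.148 in this ratio. The GASA4 to GASA1 ratio was 0.414 ± 0.0273, 0.390 ± 0.126, 0.191 ± 0.0623 and 0.118 ± 0.0257 in the same order. The GASA14 to GASA1 ratio was 0.0388 ± 0.00528, 0.0361 ± 0.0202, 0.0421 ± 0.00739 and 0.0753 ± 0.0630, overlapping in all 4 genotypes. In the double mutant it was 0.0375, 0.0403 and 0.148, so the third library, with 4 counts over 27, lifted the mean and the other 2 lay within the wild-type range. A ratio shows unequal change of its 2 genes and does not say which of them moved.

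**Figure D3:**
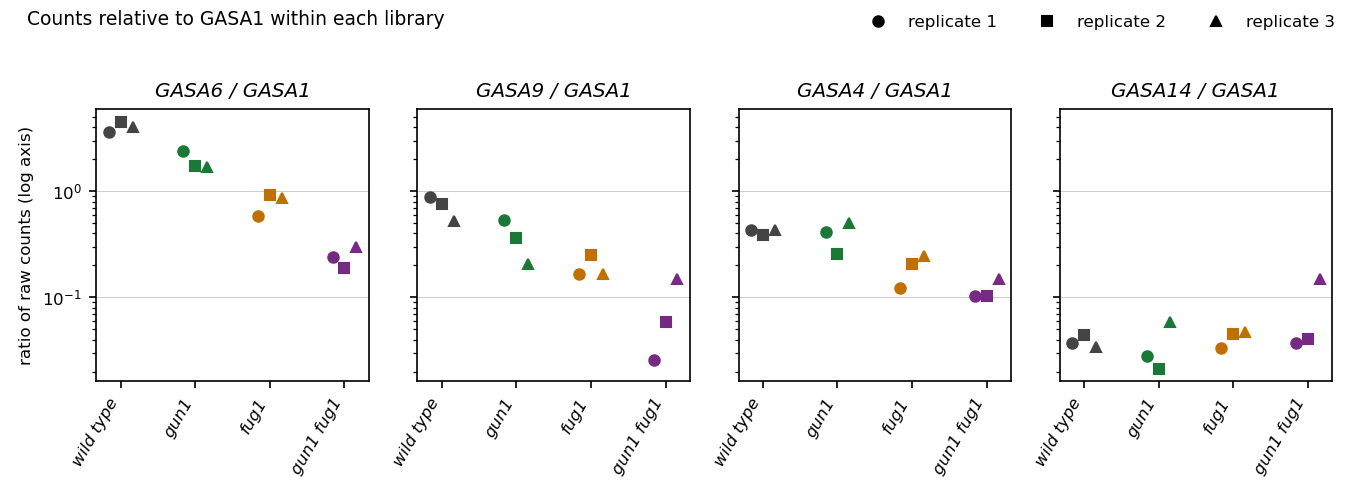
Ratio of raw counts of GASA6, GASA9, GASA4 and GASA14 to those of GASA1 within each library (log axis), with 1 point per library and no scaling between libraries. The GASA6 ratio runs from 3.60 to 4.52 in wild type down to 0.190 to 0.296 in gun1 fug1, whereas the GASA14 ratios of the 4 genotypes overlap.

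Direction depended on the scaling for some genes. With library totals in place of TMM factors, the median of all tested genes moved to -0.538 in gun1, -1.15 in fug1 alone and -1.16 in the double mutant on the log2 scale, and plastid counts were a larger share of the total in fug1 (81.74% to 84.43%) than in wild type (68.49% to 73.07%). GASA6, GASA9 and, in fug1 and gun1 fug1, GASA4 were below wild type under every scaling tried. GASA1 and GASA14 were above wild type in fug1 under TMM, RLE and upper-quartile scaling, and below it with library totals, at -0.34 and -0.23. The GASA1 call in fug1 was made with TMM alone of these scalings, and that of GASA14 with TMM, RLE and upper-quartile. Both stayed above wild type in gun1 fug1 under all of these, but neither was called in gun1 fug1 with library totals. Their lowest values in gun1 fug1 over all alternative fits were 0.13 for GASA1 and 0.18 for GASA14. In gun1, GASA1, GASA4 and GASA14, none of them called there, likewise turned from above to below wild type with library totals. Changes given here are therefore relative to the bulk of genes.

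**Figure D4:**
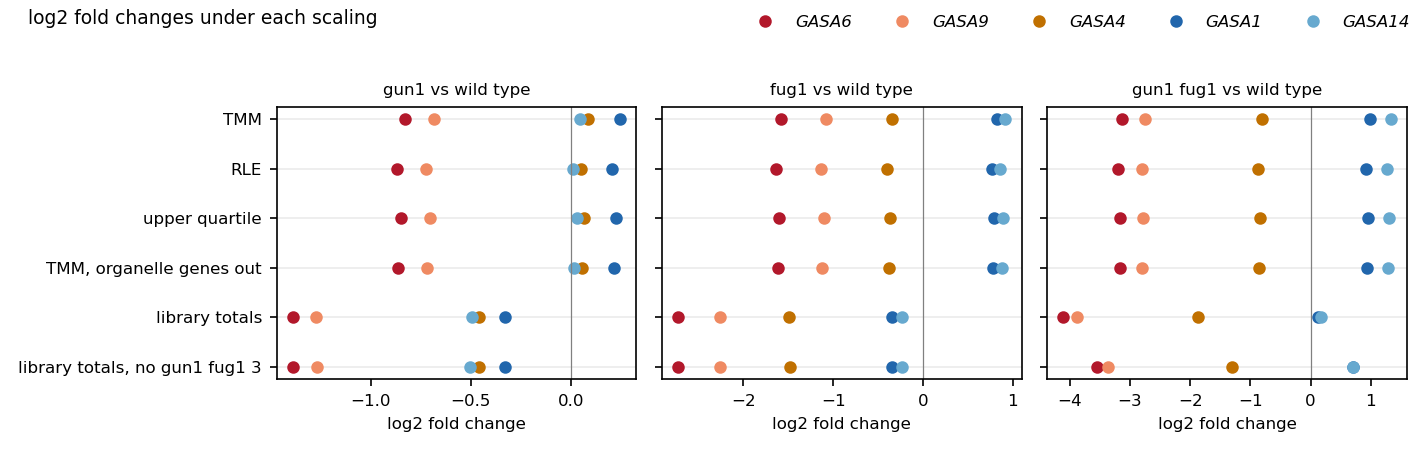
Log2 fold change from wild type of the 5 GASA genes under 6 ways of scaling the libraries, 1 row each. TMM, RLE, upper-quartile and organelle-free scaling lie close together, and library totals shift all 5 genes to lower values, so that GASA1 and GASA14 cross 0 in fug1 to -0.34 and -0.23.

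Across the 12 libraries, the log2 levels of GASA6 and GASA9 correlated at Pearson r = 0.877, and at 0.894 over 11 libraries without the third double-mutant one. GASA6 and GASA14 correlated at -0.916 and -0.885. GASA1 and GASA6 correlated at -0.398 over 12 libraries and at -0.869 over 11. These points share genotype and scaling, so the coefficients are a description. Among 5536 genes outside the family with a mean of at least 50 counts, the closest to GASA6 was PIRL4, a leucine-rich repeat protein gene, at r = 0.991 over 12 libraries and 0.986 over 11. Over 12 libraries AT1G52190, a gene of the major facilitator family, followed at 0.978, and CLPP4, a subunit of the plastid CLP protease, at 0.974. Over 11 their places were taken by AT1G78020 (0.982) and AT4G31480 (0.979). The closest to GASA9 was AT1G66100, a thionin gene, at 0.970 over either set. For GASA1 it was PDH-E1 ALPHA (0.946 over 12) or AT2G37220 (0.972 over 11), for GASA4 KAB1 (0.962) or AT2G41620 (0.945), and for GASA14 AT4G32760 (0.943) or LARP1c (0.924).

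Of the 6 family members outside the 9, only GASA7 passed the filter. These 6 were also listed with earlier results of these data known, so the adjusted p of GASA7 is a description. It had 48, 40 and 36 counts in wild type, 12, 26 and 15 in gun1, 10, 15 and 10 in fug1 alone and 10, 7 and 0 in gun1 fug1. Its level fell in gun1 fug1, by a log2 fold change of -1.56 ± 0.450 (SE, edgeR quasi-likelihood adjusted p = 0.0161), a call lost without gun1 fug1 1 or gun1 fug1 2, with -1.74 to -1.49 over the 12 fits. GASA8, GASA11, GASA12, GASA13 and GASA15 had at most 2 counts in a library.

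The hormone pathway itself was read from 5 lists of 50 genes, of which 28 were tested. These lists were also chosen with earlier results of these data known. Calls and adjusted p-values of their genes are therefore a description, and nothing is read from their counts. In gun1 2 were called higher and 1 lower (10.7% of the 28), in fug1 3 and 1 (14.3%) and in gun1 fug1 4 and 4 (28.6%), where 5.94%, 17.8% and 21.9% of all tested genes were called in either direction. In the double mutant against gun1, against fug1 and in the interaction, 0 of the 28 were called by edgeR, DESeq2 or limma-voom, and 7, 8 and 10 had an unadjusted p under 0.05 in edgeR.

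Among genes of gibberellin synthesis, 2 of 5 tested fell in gun1 fug1 and none was called in gun1 or fug1, where 9.88% of all tested genes were called lower in gun1 fug1. GA20OX1, a GA 20-oxidase near the end of the pathway, had 29, 17 and 34 counts in wild type against 5, 2 and 0 in gun1 fug1. Its log2 fold change was -2.19 ± 0.545 (SE, edgeR adjusted p = 0.00637), a call lost without gun1 fug1 2, at -2.86 to -1.86 over the 12 fits. GA3, the ent-kaurene oxidase gene, had 111, 65 and 62 counts in wild type against 28, 16 and 0 in gun1 fug1. Its log2 fold change was -1.13 ± 0.338 (edgeR adjusted p = 0.0193), a call lost without wild type 1 or gun1 fug1 2, at -1.5 to -0.99. The median over the 5 was -1.13, beside -0.03 over all tested genes. Neither of 2 tested GA 2-oxidase genes, which inactivate the hormone, was called in any genotype.

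Among 11 tested genes of perception and signalling, calls were upward only: 1 in gun1, 2 in fug1 alone and 3 in the double mutant, where 3.52%, 9.94% and 12% of all tested genes were called higher. GID1B, a gibberellin receptor gene, had 10, 12 and 22 counts in wild type, 21, 28 and 44 in gun1, 21, 30 and 23 in fug1 alone and 47, 33 and 1 in gun1 fug1. Its log2 fold change was 1.71 ± 0.389 (SE, edgeR adjusted p = 0.0117) in gun1, 1.96 ± 0.400 (adjusted p = 0.00231) in fug1 and 2.11 ± 0.408 (adjusted p = 9e-04) in the double mutant, by the same test. All libraries of the single mutants were above wild type in CPM, and the third double-mutant library overlapped it. The gun1 call was lost without wild type 1, wild type 2 or gun1 3, at 1.34 to 2.20, and the other 2 calls were made in all 12 fits. Of the DELLA genes, RGL3 rose in fug1 by 1.09 ± 0.249 (edgeR adjusted p = 0.00529), though it was at -0.064 with library totals. GAI and RGA were not called in any genotype.

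In gun1 fug1, GID1C, a second receptor gene, rose by 0.80 ± 0.264 (SE, edgeR adjusted p = 0.0325) and SEC, an O-GlcNAc transferase gene that acts on DELLA proteins, by 0.67 ± 0.211 (edgeR adjusted p = 0.0264), though they stood at -0.27 and -0.54 with library totals. The GID1C call was lost without wild type 1, wild type 2, gun1 fug1 1 or gun1 fug1 2, at 0.53 to 1.00, and the SEC call without any 1 wild-type library or gun1 fug1 1, at 0.57 to 0.77.

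Among 6 tested genes that DELLA proteins are known to induce, 1 was called higher in each mutant. It was LBD40 in gun1 and gun1 fug1 and SCL3 in fug1. Of all tested genes 3.52%, 9.94% and 12% were called higher, and no trend of the list is read from 1 gene. SCL3, a GRAS regulator that counters DELLA proteins, rose in fug1 by 1.31 ± 0.316 (SE, edgeR adjusted p = 0.00747), a call lost without wild type 1, at 0.98 to 1.44. LBD40, a gene of the LOB-domain family, had 3, 4 and 10 counts in wild type, 13, 14 and 42 in gun1 and 29, 19 and 0 in gun1 fug1. Its log2 fold change was 2.62 ± 0.625 (edgeR adjusted p = 0.0199) in gun1 and 2.68 ± 0.666 (adjusted p = 0.00835) in gun1 fug1. The first call was lost without wild type 1, wild type 2 or gun1 3, at 1.83 to 3.36, and the second without gun1 fug1 1, at 2.20 to 3.40. bHLH137, named after its values were seen, lay the other way, with 28, 17 and 11 counts in wild type, 6, 1 and 0 in gun1, 4, 0 and 3 in fug1 alone and 6, 1 and 0 in gun1 fug1. Its log2 fold changes were -2.26 ± 0.713 (SE), -1.68 ± 0.733 and -1.64 ± 0.760, not called (edgeR adjusted p = 0.0601, 0.113 and 0.124), and no mutant library reached wild type in CPM.

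Of 4 tested PRE genes, small helix-loop-helix proteins that promote cell elongation, calls were downward only: 1, 1 and 2 in gun1, fug1 and gun1 fug1, where 2.42%, 7.88% and 9.88% of all tested genes were called lower. PRE2 had 38, 44 and 23 counts in wild type, 12, 4 and 6 in gun1, 3, 3 and 1 in fug1 alone and 0, 1 and 0 in gun1 fug1. Its log2 fold change was -1.60 ± 0.448 (SE, edgeR adjusted p = 0.0351) in gun1 and -2.61 ± 0.560 (adjusted p = 0.00344) in fug1. In gun1 fug1 it was called lower (edgeR adjusted p = 0.000179), with a scaled ratio of 2.39% of wild type and an exact 95% interval of 0.0599% to 13.6% for counting error only, from 1 count against 105. The gun1 call was lost without wild type 1, wild type 2, gun1 2 or gun1 3, at -2.07 to -1.35, and the other 2 were made in all 12 fits. PRE5 was also called lower in gun1 fug1 (edgeR adjusted p = 0.0248), with 3 counts against 43 and a ratio of 17.5% (3.47% to 54.6%), a call lost without wild type 2, gun1 fug1 1 or gun1 fug1 2, at log2 values of -2.88 to -2.22.

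**Figure D5:**
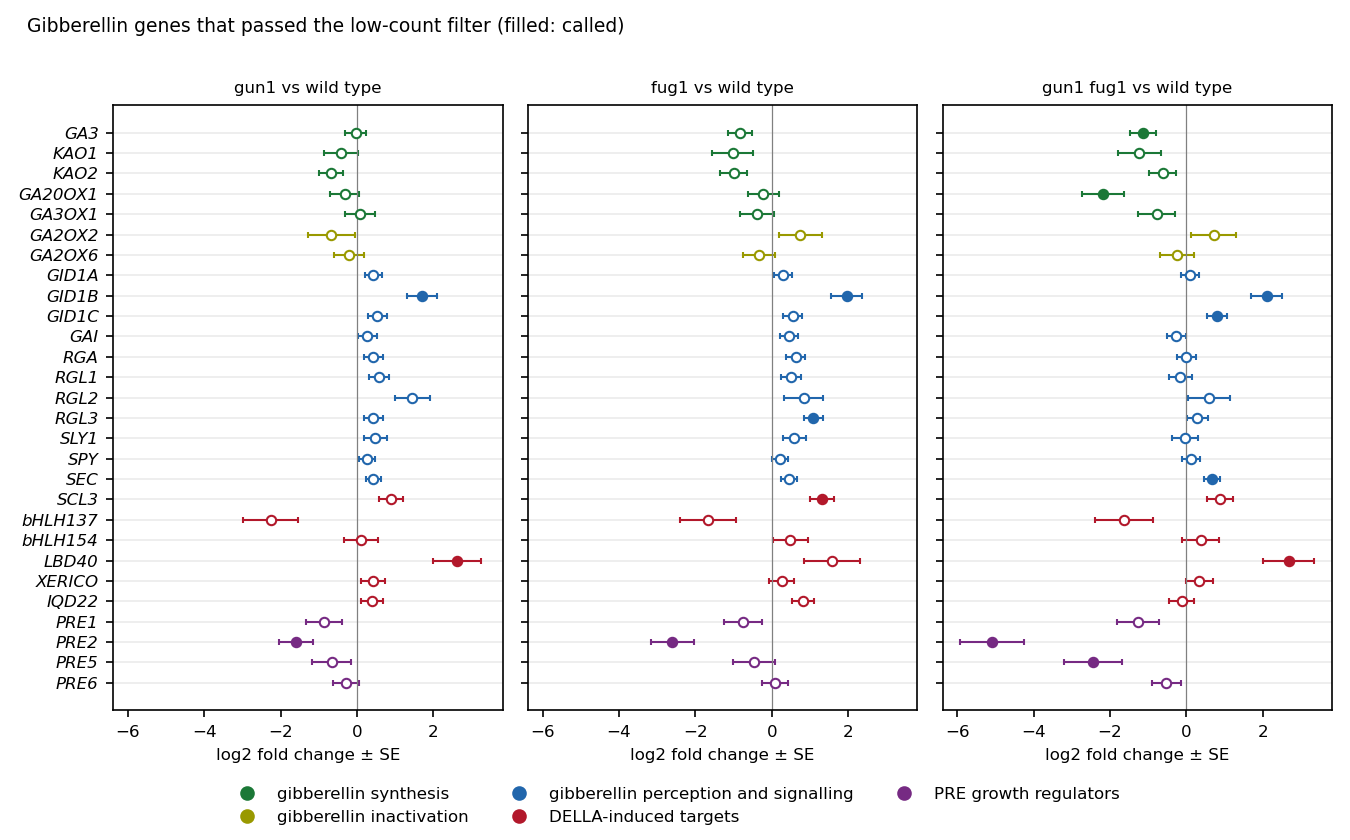
Log2 fold change from wild type (points) and SE (bars) of the 28 tested gibberellin genes, coloured by list and filled where called. GID1B is filled and above 0 in all 3 mutants at 1.71, 1.96 and 2.11, and PRE2 is filled and below 0 in all 3.

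Markers of roots, of the seed and of green cotyledons were read from the same libraries. Their lists were also chosen with earlier results of these data known. The summed level of 8 root markers was 1.43 to 6.53 CPM in wild type, 4.75 to 47.1 in gun1, 18.9 to 32.5 in fug1 and 36.0 to 52.7 in gun1 fug1. Of the 8, 1, 7 and 8 were called higher in gun1, fug1 and gun1 fug1, where 3.52%, 9.94% and 12% of all tested genes were. At most 2 of the 8 were at 0 in any library. The third gun1 library, lowest of its group in GASA6 and GASA9, was the highest in root markers at 47.1 CPM, against 4.75 and 17.6 in the other 2. The sum of 8 seed storage and embryo markers was 7.33 to 18.0 CPM in wild type, 43.3 to 86.7 in gun1, 39.5 to 58.0 in fug1 and 59.7 to 87.6 in gun1 fug1. Of the 5 tested, 4, 5 and 4 were called higher in gun1, fug1 and gun1 fug1, beside the same 3.52%, 9.94% and 12% of all tested genes. At most 2 of these 8 seed markers were at 0 in any library. The 6 markers of green cotyledons summed to 9342 to 10030 CPM in wild type and 6580 to 13370 in the mutants, with none at 0. None of these 6 was called in any mutant by edgeR. The part of root or seed tissue in the GASA differences was not tested.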

How the data were processed

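RNA from whole 4-d-old seedlings was sequenced in 12 libraries. Each deposited table holds raw read counts for every gene, which the authors did not normalize. Per the submitters' processing notes, Trimmomatic, FastQC, TopHat2 2.1.1, featureCounts and the TAIR10 build were used. The strand setting, the annotation version and the handling of reads with several matches are not given in the sources used here. Genotype labels gave the groups. Titles gave the replicate numbers, since those in the gun1 fug1 table names are 1 above those in the titles.

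Differences were tested in edgeR 4.0.16 (R 4.3.3): filterByExpr by genotype, TMM factors, and a robust quasi-likelihood fit of genotype over all 12 libraries. The 6 comparisons used a threshold of 0.05 on p adjusted by Benjamini-Hochberg across 15371 genes. The SE of a log2 fold change was derived from this test, as its absolute value divided by the square root of the F statistic. The procedure was run on simulated data, with a small part of the genes changed and the fitted library sizes taken as true. That run therefore does not bear on the choice of scaling. Alternatives were RLE, upper-quartile and library-total scaling, organelle genes left out, other filters, DESeq2 1.42.0, limma-voom (limma 3.58.1), a threshold of 0.01, the groups compared alone, the replicate number as a block, and each library left out.

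The GASA genes and the gene lists were chosen with earlier results of these data known. Named genes are all GASA genes, up to 3 called genes with the smallest p in each gibberellin list and comparison, and up to 3 genes of like pattern by Pearson correlation of log2 CPM (prior count 2). Libraries of one genotype differed by more than sampling noise. Symbols of 75 of 87 listed genes, positions and promoters came from the RefSeq TAIR10.1 annotation, which holds all 87 identifiers. GASA numbers that it lacks follow common usage.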

Additional observations from a re-analysis of the deposited data

Results flagged for a closer look

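AT1G74675, the gene that overlaps GASA6 on the opposite strand, was set apart by a difference between backgrounds: its gun1 effect in fug1-3 seedlings less that in FUG1 wild-type seedlings was -2.11 ± 0.490 on the log2 scale (SE, edgeR quasi-likelihood adjusted p = 0.0328). Its log2 fold change from wild type was -0.47 ± 0.240 in gun1, -1.23 ± 0.264 in fug1 and -3.80 ± 0.378 in the double mutant. The double mutant holds 10, 4 and 0 counts of it. The same interaction for GASA6 was -0.72 ± 0.351 and was not called. Reads of the shared 206 bp cannot be assigned to either strand from the sources used here. AT1G74675 was read from the main fit alone, so whether its call holds without gun1 fug1 3 or under another scaling was not tested. Over all genes, the 206 interaction calls became between 28 and 690 when a library was left out, and 0 with library totals.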

How the results depend on the processing

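Against wild type, 1 GASA gene was called in gun1, 3 in fug1 and 5 in the double mutant. Between the double mutant and gun1 4 were called, between it and fug1 1, and for the interaction 0. In at least 1 of the 3 comparisons with wild type, 11 distinct gibberellin pathway genes were called, GASA7 included. Of all tested genes 5.94%, 17.8% and 21.9% were called in these 3, and the share called in at least 1 was not computed. Pathway counts below cover the same 3 comparisons. Leaving out each library in turn gave 0 to 1, 1 to 4, 3 to 5, 1 to 4, 1 to 2, 0 and 6 to 16, in that order. Library totals in place of TMM gave 0, 0, 2, 0, 0 and 0, with 1 pathway gene. Library totals without gun1 fug1 replicate 3 gave 2, 3, 4, 4, 3 and 2, with 22 pathway genes, where the median of all genes lay at -0.544, -1.16 and -0.62 in the 3 mutants and at 1.05 for the interaction. A threshold of 0.01 gave 0, 1, 3, 1 and 1 GASA genes in the 5 contrasts and 6 pathway genes. Without a filter on low counts 2 were called in gun1 and 2 in gun1 fug1 against fug1, and the stricter filter left 3 pathway genes. DESeq2 called 2 in gun1 fug1 against fug1 and 2 in fug1 against wild type, GASA6 and GASA9, without GASA1 and GASA14. RLE, upper-quartile and organelle-free scaling also called 2 in fug1, without GASA1. limma-voom called 3 in gun1 fug1 against gun1, without GASA9. The stricter filter, which GASA14 did not pass, left 4 in gun1 fug1 and 3 against gun1. With only the groups compared in the fit, 1 was called in gun1 fug1 against gun1 and 2 against fug1, and the interaction could not be fitted. The cause of these changes was not tested, except that fewer genes or libraries enter some fits by construction.

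Same-numbered libraries of different genotypes had deviations that correlated between -0.082 and 0.36, with 3 of 18 pairs over 0.1. These were wild type 1 with gun1 1 (0.315), wild type 3 with gun1 3 (0.36) and gun1 3 with fug1 3 (0.134). Whether some same-numbered libraries share a batch was not tested, and the main fit left the number out. With the number as a block, 4 GASA genes were called in fug1, GASA9 being added, 2 in gun1 fug1 against fug1, and 15 pathway genes against wild type. Over all genes the block took the number called from 913 to 1298 in gun1, 2739 to 3052 in fug1 and 3362 to 3894 in gun1 fug1. The number went from 475 to 798 against gun1, 41 to 86 against fug1 and 206 to 292 for the interaction.

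With library totals, and without gun1 fug1 replicate 3 in addition, GASA1 in fug1 turned to -0.34 and -0.34, GASA14 to -0.23 and -0.23 and RGL3 to -0.064 and -0.063. SEC in gun1 fug1 turned to -0.54 and -0.013, and GID1C to -0.27 with library totals. Over all genes, leaving out a library moved the number called from 913 to between 154 and 1753 in gun1, from 2739 to between 965 and 3714 in fug1, from 3362 to between 1742 and 4107 in gun1 fug1, from 475 to between 96 and 820 against gun1, from 41 to between 17 and 116 against fug1 and from 206 to between 28 and 690 for the interaction. Library totals left 1, 8, 174, 5, 1 and 0, and 5729, 12075, 6641, 551, 2750 and 7199 without gun1 fug1 replicate 3. That library had 11535902 counts in total, so its total was not low. It held only 4 to 27 counts in each of the 5 GASA genes, which limits every double-mutant value.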
